A study of Mus musculus with 56 samples.

Results

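Motor neurons of the spinal cord differ in type. Alpha motor neurons drive the force-producing muscle fibers and fall into fast-firing and slow-firing types, whereas gamma motor neurons set the tension of the muscle spindle. In amyotrophic lateral sclerosis (ALS) and its mouse models the fast alpha neurons are known to withdraw from muscle first, and slow alpha and gamma neurons later or not at all. The mRNAs described here are 10 markers of these types, chosen by name out of the 43629 gene IDs in each deposited file. Mmp9, a matrix metalloproteinase, Chodl (chondrolectin), a membrane protein, and Calca, which encodes calcitonin and the neuropeptide CGRP, mark fast or vulnerable alpha motor neurons. Spp1 (osteopontin) and Rbfox3, which encodes the neuronal splicing factor NeuN, mark alpha motor neurons. Sv2a, a synaptic vesicle protein, is used as a marker of slow motor neuron terminals. Esrrg and Esrrb, nuclear receptors of the estrogen-related family, are markers of gamma and slow motor neurons, and the serotonin receptor Htr1d and the signalling protein Wnt7a are markers of gamma motor neurons. Members of these groups are also made by other spinal cord cells, so that their level in tissue is not a count of motor neurons.

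All 10 are protein-coding genes, and counts were taken over their exons. In the mouse build GRCm38 the fast markers lie at chr2:164940780-164955850 on the plus strand (Mmp9), chr16:78930948-78951733 on the plus strand (Chodl) and chr7:114631478-114636357 on the minus strand (Calca). The alpha markers lie at chr5:104435118-104441050, plus strand (Spp1), and chr11:118489762-118911597, minus strand (Rbfox3), and Sv2a at chr3:96181151-96195521, plus strand. Esrrg spans chr1:187608791-188214885, Esrrb chr12:86361117-86521628 and Htr1d chr4:136423524-136444398, all on the plus strand, and Wnt7a spans chr6:91363981-91411363 on the minus strand.

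The study measured ribosome-bound mRNA of cholinergic neurons by translating ribosome affinity purification (MN-TRAP) and compared it with mRNA of the whole spinal cord lysate. There were 56 libraries in 12 groups of 3 to 6, given by genotype, by age (9 or 14 weeks) and by fraction, with 25 MN-TRAP and 31 spinal cord libraries. All mice, controls included, carried the Chat bacTRAP transgene (line DW167 DW167Htz/J), in which the Chat promoter of a bacterial artificial chromosome drives the tagged ribosomal protein EGFP-L10a, so other cholinergic neurons of the cord are captured as well. hTDP-43 A315T mice (line 95Balo/J) also carried human TDP-43 with the ALS mutation A315T, hTDP-43 WT mice (line 3cPtrc/J) carried the unmutated human protein, and Chat bacTRAP mice carried no human TDP-43; the prion promoter that drives both human transgenes is not restricted to motor neurons. The mice were female according to the study's text. The labels name the cervical cord, and the study's text the whole spinal cord; which of these was used is unsettled. By the study's text some of every lysate was set aside as the cord input, so an MN-TRAP and a cord library can share an animal. The labels do not say which MN-TRAP and cord libraries came from the same animal, nor that each library was a separate animal. The main model treated the libraries as independent, so p-values measure the spread between these libraries.

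MN-TRAP libraries held 472447 to 255802240 counts (median 19553070) and cord libraries 17493897 to 86654485 (median 40384236). All 6 markers of motor neurons examined (Chat, Slc18a3, Slc5a7, Mnx1, Isl1 and Prph) were higher in MN-TRAP, by 2.73 to 3.74 on the log2 scale, although Slc18a3 lies within the Chat locus that the transgene carries. All 7 oligodendrocyte, 5 astrocyte, 6 microglia, 3 endothelial, 5 interneuron and 2 Schwann cell markers were lower in MN-TRAP. Other lists were less uniform. Called lower were 1 of 4 sensory neuron markers, 3 of 4 of skeletal muscle and 1 of 2 of meninges and fibroblasts. Several libraries stood apart. The pseudogene Lamr1-ps1 had 12 to 94 counts in all 18 A315T libraries and at most 1 count in 35 of the 38 control libraries, but 432 counts in hTDP-43 WT 14-week MN-TRAP replicate 5, 18 in hTDP-43 WT 9-week MN-TRAP replicate 3 and 258 in Chat bacTRAP 9-week MN-TRAP replicate 4. Of all 300 pairs of MN-TRAP libraries, the pair closest in counts joined the first of these to A315T 14-week replicate 3 and the next joined the last to A315T 9-week replicate 5, with a chi-square per gene of 1.35 and 2.03 against 5.37 for the third closest pair. One library, Chat bacTRAP 14-week MN-TRAP replicate 4, held Y-linked reads (Ddx3y, 245 counts), and 3 MN-TRAP libraries held fewer than 3000000 counts. The values below are from all libraries unless stated. Without each of these 3 sets, choices made after seeing the data, the same 6 markers were called higher in MN-TRAP than in cord, and further values without them stand beside some results below.

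All 3 fast alpha markers, the alpha marker Spp1 and the gamma markers Htr1d and Wnt7a were called higher on motor neuron ribosomes than in the cord, and Sv2a was called lower. Over the 6 strata of genotype and age, 6 of the 10 markers were called higher in MN-TRAP than in cord, that is with a Benjamini-Hochberg adjusted p below 0.05 in edgeR's quasi-likelihood test and a change of at least 2-fold; of all genes tested, 10.4% were called higher. They were Calca (13.8-fold), Chodl (10.6-fold), Spp1 (5.09-fold), Mmp9 (4.57-fold), Htr1d (3.85-fold) and Wnt7a (2.25-fold). Sv2a was called lower, by 2.65-fold, as were 26.1% of all genes. Esrrb and Esrrg passed the adjusted p but not the fold, at a log2 difference of 0.91 (SE 0.11) and 0.43 (SE 0.10), and Rbfox3 did not differ detectably (log2 difference -0.05, SE 0.10, adjusted p = 0.629). The median log2 difference of the 10 markers was 1.56, beside -0.17 for all genes tested.

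**Figure D1:**
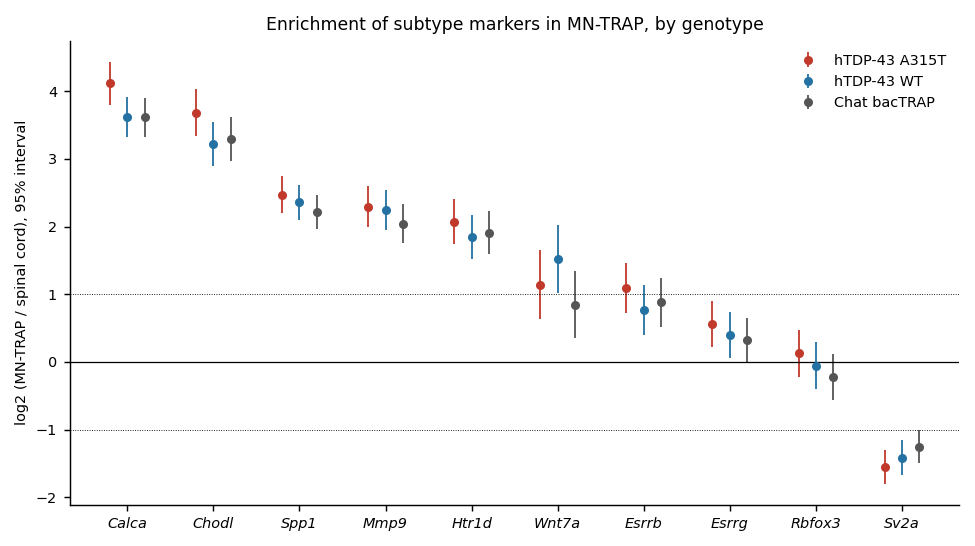
Log2 ratio of MN-TRAP to spinal cord (y axis) for the 10 markers (x axis) in each genotype; points are estimates of the edgeR model and bars 95% intervals, dotted lines mark a 2-fold difference. Calca and Chodl lie highest in all 3 genotypes and Sv2a lies below -1 in all 3, while the intervals of Rbfox3 reach both sides of 0.

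For 5 of the enriched markers no MN-TRAP library of any genotype or age overlapped a cord library, which held for 2.53% of all genes in this direction. Calca had 14844 to 38557 normalized counts (median 22930) in the 25 MN-TRAP libraries and 1119 to 2616 (median 1806) in the 31 cord libraries. Chodl had 5787 to 15926 (median 11515) against 796 to 2010 (median 1064). These are the most strongly separated markers of the list, and both mark fast alpha motor neurons. Spp1 had 19463 to 53715 (median 28520) against 4454 to 8846 (median 5915). Mmp9 had 781 to 2779 (median 1645) against 312 to 595 (median 383). Htr1d was the least abundant of these 5 in raw terms, with 193 to 820 (median 478) against 106 to 157 (median 135). Its lowest MN-TRAP value, 193, was 3 reads in hTDP-43 WT 9-week replicate 1, the library of 472447 counts. Sv2a separated the other way, with 3150 to 8437 (median 4001) in MN-TRAP and 10172 to 14675 (median 12252) in cord, as did 1.90% of all genes.

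The remaining 4 markers overlapped between the fractions. Wnt7a had 129 to 1731 normalized counts (median 408) in MN-TRAP and 120 to 312 (median 201) in cord. The value of 129 was 2 reads in the library of 472447 counts. Esrrb had 185 to 906 (median 634) against 222 to 422 (median 342). Both were higher in the middle of their range, but the lowest MN-TRAP library fell inside the cord range or below it. Esrrg had 1487 to 4320 (median 3096) against 1396 to 4430 (median 2255). Rbfox3 had 2472 to 9363 (median 4698) against 3304 to 7014 (median 5560), so the range of MN-TRAP enclosed that of cord. NeuN is made by most neurons of the cord.

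**Figure D2:**
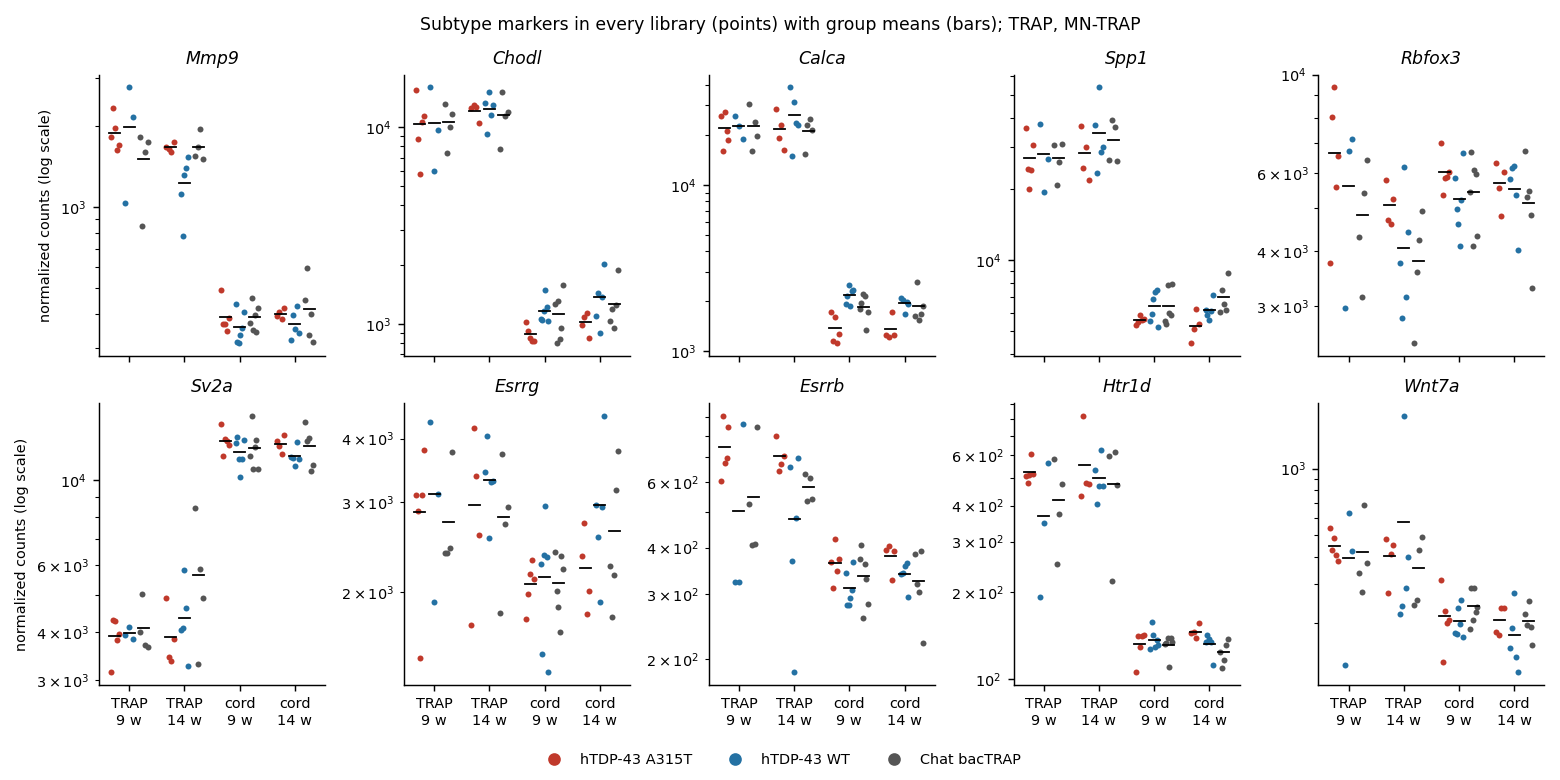
Normalized counts (log axis) of each marker in every library (points, colored by genotype) with group means (bars), for MN-TRAP and cord at 9 and 14 weeks; each panel has its own axis. MN-TRAP points of Calca, Chodl, Spp1, Mmp9 and Htr1d lie above all cord points and those of Sv2a below, and within a fraction the 3 genotypes mostly share their range.

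The same markers were enriched in each genotype taken alone, apart from Wnt7a and Esrrb, which crossed the 2-fold limit. In hTDP-43 A315T mice 7 of 10 were called higher (Esrrb among them, log2 difference 1.10, SE 0.18), beside 13.3% of all genes. In hTDP-43 WT mice 6 were called higher, beside 9.80%. In Chat bacTRAP mice 5 were called higher, beside 9.25%; Wnt7a there had a log2 difference of 0.85 (SE 0.25), which passed the adjusted p alone. Calca, the marker with the highest ratio in each genotype, had a log2 difference of 4.12 in A315T mice and 3.62 in each control. The ratio in A315T mice exceeded that in Chat bacTRAP mice by 0.50 (SE 0.19, adjusted p = 0.198). It exceeded that in hTDP-43 WT mice by 0.50 (SE 0.20, adjusted p = 0.268), and neither difference passed the test. By edgeR no marker was called for a difference in enrichment between A315T and either control, beside 0.664% and 0.626% of all genes.

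Per kilobase of exon, which allows levels of different genes to be set side by side, the order in MN-TRAP was led by Spp1 and Calca, whose products are secreted. The median level was 17306 normalized counts per kb for Spp1, 13616 for Calca and 2097 for Chodl. Sv2a followed with 863 and Rbfox3 with 808, and then Esrrg with 499 and Mmp9 with 465. The 3 least abundant were Htr1d with 149, Wnt7a with 129 and Esrrb with 105. Thus among the fast markers Calca and Mmp9 lay far apart in level. In cord the order was Spp1 with 3589, Sv2a with 2643, Calca with 1073, Rbfox3 with 956 and Esrrg with 363. Chodl had 194, Mmp9 108, Wnt7a 63.2, Esrrb 56.6 and Htr1d 42.1. Dividing by the longest transcript instead of all exon bases placed Calca above Spp1, Rbfox3 above Sv2a and Esrrb above Wnt7a in MN-TRAP, so these neighbors have no fixed order. Spp1 shares 309 of its 1648 exon bases with the predicted gene Gm42793 on the same strand, and reads there may not have been assigned to it.

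**Figure D3:**
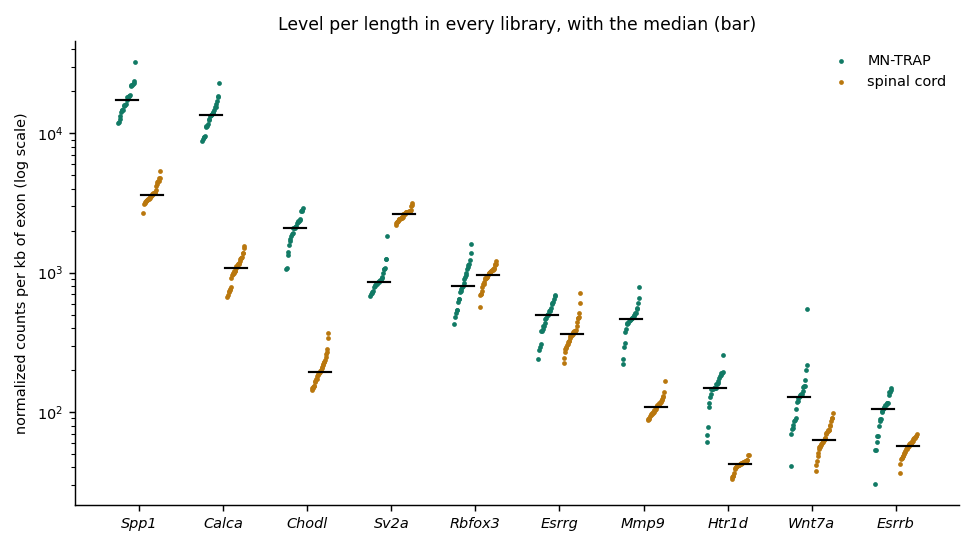
Normalized counts per kb of exon (log axis) for each marker, with a point for each library, green for MN-TRAP (25 libraries) and orange for spinal cord (31 libraries), and bars at the medians. Spp1 and Calca stand highest in MN-TRAP, and Sv2a is the marker whose cord points lie wholly above its MN-TRAP points.

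The upstream sequence of the 2 most enriched markers, whose cord values are also given by library below, is shown for context. It was taken from RefSeq (GRCm38.p6), which gave a window for 9 of the 10 markers, and covers the 250 bases before the transcription start, written 5′ to 3′ in the direction of transcription. Capitals mark the letters AGGTCA on either strand, the core that estrogen-related receptors such as Esrrb and Esrrg bind.

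Calca, chr7:114636358-114636607, minus strand: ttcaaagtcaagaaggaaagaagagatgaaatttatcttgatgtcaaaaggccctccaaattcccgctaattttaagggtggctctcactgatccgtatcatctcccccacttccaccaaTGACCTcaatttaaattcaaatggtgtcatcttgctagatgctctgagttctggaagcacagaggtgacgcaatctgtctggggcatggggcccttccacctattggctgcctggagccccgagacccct

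Chodl, chr16:78930698-78930947, plus strand: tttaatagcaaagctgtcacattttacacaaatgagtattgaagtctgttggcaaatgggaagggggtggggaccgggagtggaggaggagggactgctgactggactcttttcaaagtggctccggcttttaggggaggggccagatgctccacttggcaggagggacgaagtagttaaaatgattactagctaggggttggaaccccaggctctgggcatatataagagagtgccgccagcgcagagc

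Of the 15 windows of these 9 markers, 1 held AGGTCA, that of Calca, where its first base lay 130 bases before the start; 4607 of all 32851 windows of this length held it. The longer form TCAAGGTCA, which contains it, was in no marker window and in 0.387% of all. TATAAA, the letters of a TATA box, occurred in windows of Esrrg and Spp1 (12.4% of all), the homeodomain core TAATTA in 1 of Spp1 (4.84% of all) and the E-box CAGCTG in windows of Esrrb and Sv2a (4271 of the 32851). All 5 were searched on both strands, and a match of letters is no measure of binding.

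In MN-TRAP no marker was called between genotypes when all libraries were included. At 14 weeks, when the A315T mice show motor symptoms, edgeR called 0 of the 10 markers against Chat bacTRAP, where 10.4% of all genes were called, and 0 against hTDP-43 WT, where 5.36% were. Over all 6 genotype contrasts in MN-TRAP, 0 of 60 marker values were called, with 7 at an unadjusted p below 0.05; DESeq2 and limma-voom also called 0, with 7 and 4 below that p. The 95% intervals of 8 of 10 markers stayed within 2-fold in both directions in each of the A315T contrasts at 14 weeks. MN-TRAP libraries varied more than cord, with median coefficients of variation within a group of 17.1% to 39.4% beside 8.06% to 22.8%. These intervals, from a model of both fractions, may thus be too narrow for MN-TRAP. With MN-TRAP fitted alone, 0 of 60 marker values were called, with 1 below that p, beside 0.00% of all genes in both A315T contrasts at 14 weeks. In bulk MN-TRAP and cord libraries, fewer cells of a type and less RNA per cell cannot be told apart.

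None of the 3 fast and vulnerable markers, those of the neurons known to be lost first, passed the test on motor neuron ribosomes at 14 weeks. Mmp9 had 1675, 1645, 1606 and 1747 normalized counts in A315T mice, 1547, 1676, 1946 and 1513 in Chat bacTRAP mice, and 1113, 781, 1317, 1401 and 1536 in hTDP-43 WT mice. The A315T libraries lay within the Chat bacTRAP range and above every hTDP-43 WT library; 1.07% of all genes separated in that way. The log2 change of Mmp9 was 0.11 (95% interval -0.33 to 0.54) against Chat bacTRAP and 0.42 (0.01 to 0.83, adjusted p = 0.212) against hTDP-43 WT, the latter 0.54 (adjusted p = 0.0733) without the control libraries with Lamr1-ps1 reads. The hTDP-43 WT library with the lowest Mmp9, replicate 2, also had the highest summed oligodendrocyte markers of its group, 4019 CPM (counts scaled to library size); the part of this in the result was not tested.

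Chodl had 12432, 12929, 12663 and 10481 normalized counts in A315T mice at 14 weeks, 7770, 15123, 11420 and 11948 in Chat bacTRAP mice, and 13224, 9255, 15149, 11515 and 12960 in hTDP-43 WT mice. Its log2 change was 0.19 (-0.28 to 0.65) and -0.05 (-0.49 to 0.39). Both controls enclosed the A315T libraries. Calca had 28502, 19078, 22937 and 16112 in A315T, 15358, 23031, 24949 and 21498 in Chat bacTRAP, and 38557, 14844, 31389, 23384 and 22930 in hTDP-43 WT mice. Its log2 change was 0.15 (-0.27 to 0.56) and -0.28 (-0.68 to 0.11). The spread of Calca among hTDP-43 WT libraries was thus wider than its distance between genotypes.

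The alpha markers also overlapped between genotypes at 14 weeks. Spp1 had 36910, 24399, 30052 and 21815 normalized counts in A315T, 26421, 39199, 36646 and 26113 in Chat bacTRAP, and 37102, 23402, 53715, 28520 and 29923 in hTDP-43 WT mice. Rbfox3 had 5768, 4698, 4593 and 5245 in A315T, 2472, 3583, 4231 and 4923 in Chat bacTRAP, and 3747, 2814, 6177, 3143 and 4412 in hTDP-43 WT mice. Of the A315T libraries of Rbfox3, 2 lay above the highest Chat bacTRAP library and all lay below the highest hTDP-43 WT library. The log2 change of Rbfox3 against Chat bacTRAP was 0.53 (SE 0.26, adjusted p = 0.156) at 14 weeks and 0.51 (SE 0.24, adjusted p = 0.391) at 9 weeks, and neither passed the test. Without the library with Y-linked reads the former was 0.69 (adjusted p = 0.0659).

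Sv2a had the smallest adjusted p of the 10 markers for A315T at 14 weeks. It had 4927, 3438, 3358 and 3848 normalized counts in A315T mice at 14 weeks, 8437, 3304, 5857 and 4900 in Chat bacTRAP mice, and 4046, 4093, 5807, 4622 and 3269 in hTDP-43 WT mice. One Chat bacTRAP library lay far above the others and one below all A315T libraries. The log2 change against Chat bacTRAP was -0.44 (SE 0.18, adjusted p = 0.0869) and against hTDP-43 WT -0.17 (SE 0.17, adjusted p = 0.593). The adjusted p of the former passed 0.05, below the 2-fold limit, with median-ratio normalization (-0.54, adjusted p = 0.0241), with DESeq2 (-0.54, adjusted p = 0.0116) and without the libraries under 3000000 counts (-0.64, adjusted p = 0.00868). It also did without A315T replicate 1 (adjusted p = 0.0362) or Chat bacTRAP replicate 2 (adjusted p = 0.0108), and over all alternatives it ran from 0.00868 to 0.694. The library at 8437 had a summed level of oligodendrocyte markers of 5327 CPM, beside at most 1741 CPM in the rest of its group; the part of this in the result was not tested.

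Esrrg, Htr1d and Wnt7a showed no separation at 14 weeks. Esrrg had 1727, 4188, 3374 and 2588 normalized counts in A315T, 1823, 3729, 2724 and 2939 in Chat bacTRAP, and 3435, 4045, 2552, 3281 and 3302 in hTDP-43 WT mice. Htr1d had 432, 820, 479 and 476 in A315T, 594, 219, 614 and 471 in Chat bacTRAP, and 530, 407, 467, 624 and 468 in hTDP-43 WT mice. For both genes the genotypes shared most of their range. Wnt7a had 479, 275, 410 and 452 in A315T, 242, 255, 428 and 489 in Chat bacTRAP, and 221, 239, 1731, 289 and 399 in hTDP-43 WT mice. A single library thus carried the hTDP-43 WT mean of Wnt7a, and its log2 change against hTDP-43 WT was -0.49 with all libraries and 0.45 without that replicate 3.

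Esrrb was the marker whose comparison depended most on the doubted libraries. At 14 weeks it had 798, 644, 673 and 707 normalized counts in A315T mice, 634, 534, 617 and 541 in Chat bacTRAP mice, and 661, 367, 185, 480 and 698 in hTDP-43 WT mice. Every A315T library lay above every Chat bacTRAP library, as for 3.58% of all genes, but the log2 change was 0.38 (SE 0.28, adjusted p = 0.373) and did not pass the test. At 9 weeks it had 604, 906, 678, 698 and 846 in A315T, 524, 407, 409 and 848 in Chat bacTRAP, and 322, 323 and 864 in hTDP-43 WT mice. The highest control value in each of the last 2 groups, and in hTDP-43 WT mice at 14 weeks (698), belonged to the control libraries with Lamr1-ps1 reads.

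With those libraries included, the log2 change of Esrrb was 0.52 (SE 0.26, adjusted p = 0.208) against hTDP-43 WT at 14 weeks, 0.51 (SE 0.30, adjusted p = 0.407) against it at 9 weeks and 0.44 (SE 0.26, adjusted p = 0.511) against Chat bacTRAP at 9 weeks. Without them, a choice made after seeing the data, these became 0.74 (SE 0.22, adjusted p = 0.0177), 1.31 (SE 0.32, adjusted p = 0.00269) and 0.83 (SE 0.24, adjusted p = 0.0279), while the change against Chat bacTRAP at 14 weeks stayed at 0.37 (adjusted p = 0.249). The second of these was then the only marker value called for genotype in MN-TRAP, beside 15.1% of all genes. hTDP-43 WT at 9 weeks was left with 2 libraries. Of these, replicate 1 held 472447 counts and 5 Esrrb reads, and replicate 2 held 234 Esrrb reads. Over all alternatives the adjusted p of Esrrb against hTDP-43 WT at 9 weeks ran from 0.00269 to 1. Htr1d against hTDP-43 WT at 9 weeks was also at a log2 change of 0.85 (adjusted p = 0.0485) without them and at 0.41 (adjusted p = 0.456) with them.

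At 9 weeks, before symptoms, no marker passed the test in MN-TRAP when all libraries were included. Against Chat bacTRAP 0 of 10 markers were called, beside 0.541% of all genes, with 1 marker at an unadjusted p below 0.05. For the hTDP-43 WT control these were 0 of 10, 2.14% and 0. Log2 changes ran from -0.03 (Sv2a) to 0.51 (Rbfox3) against Chat bacTRAP and from -0.08 (Mmp9) to 0.51 (Esrrb) against hTDP-43 WT. The comparison of the 2 controls also called 0 markers at 14 weeks, beside 13.2% of all genes, and 0 at 9 weeks, beside 0.223%. The order of the 6 groups within MN-TRAP was accordingly unsettled: 49 of 50 neighboring group means differed by less than their pooled SD, the exception being Esrrb in A315T (706 ± 67.0, SD, n = 4) above Chat bacTRAP mice (582 ± 51.0, SD, n = 4) at 14 weeks. The median coefficient of variation within a group ran from 17.1% for Sv2a to 39.4% for Wnt7a in MN-TRAP.

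**Figure D4:**
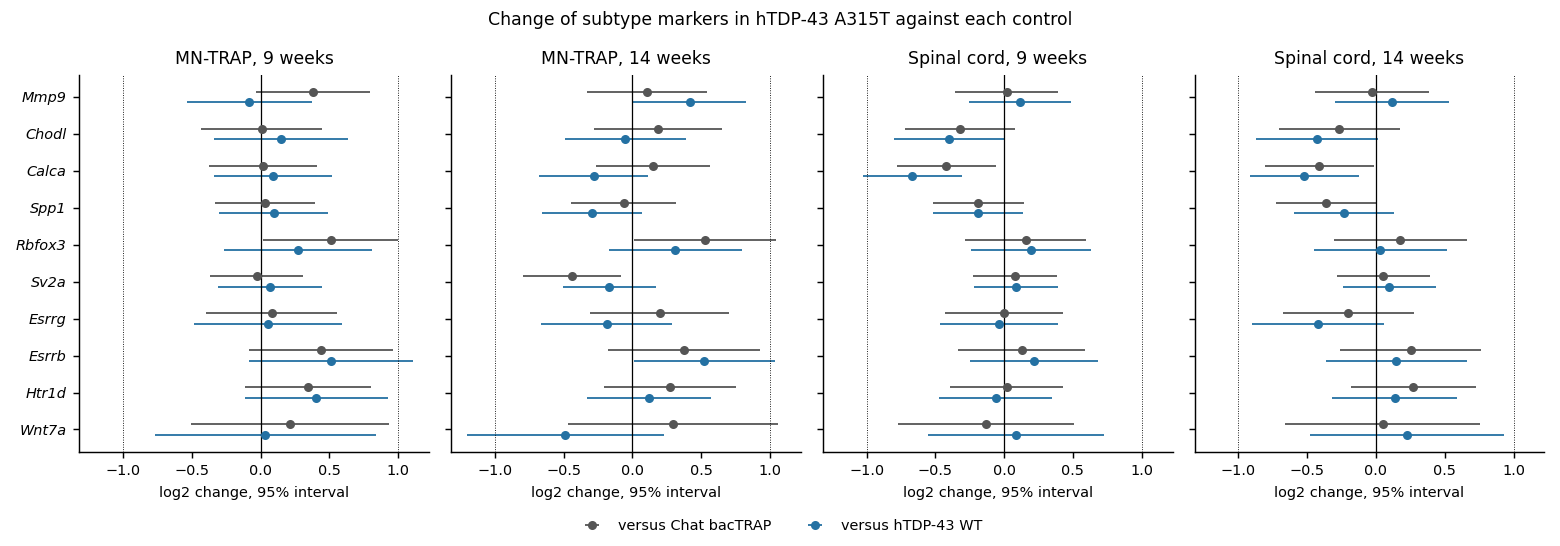
Log2 change of each marker in hTDP-43 A315T against Chat bacTRAP (grey) and hTDP-43 WT (blue), in MN-TRAP and spinal cord at 9 and 14 weeks; points are edgeR estimates, bars 95% intervals, dotted lines a 2-fold change. Most intervals cross 0. In cord, Calca and Chodl are among the markers that lie below 0 against both controls at both ages.

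In whole cord, the CGRP gene Calca was the marker with the largest negative log2 changes in A315T mice. At 14 weeks it had 1262, 1227, 1729 and 1246 normalized counts in A315T mice, 1636, 2616, 1545, 1676 and 1880 in Chat bacTRAP mice, and 2097, 2049, 1667, 1977 and 1935 in hTDP-43 WT mice. At 9 weeks it had 1727, 1159, 1607, 1119 and 1277 in A315T mice, beside 1336 to 2197 (median 1876) in Chat bacTRAP and 1871 to 2522 (median 2228) in hTDP-43 WT mice. All 9-week A315T libraries lay below all hTDP-43 WT libraries, whereas 1 A315T library at 14 weeks reached into both control ranges. Chodl at 9 weeks had 1018, 917, 847, 821 and 822 in A315T mice, and 1033 to 1483 in hTDP-43 WT mice, again without overlap, while Chat bacTRAP mice spanned 796 to 1567. Of all genes, 1.96% were lower without overlap in this contrast.

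None of these cord differences was called. The log2 change of Calca was -0.41 (SE 0.20) and -0.52 (SE 0.20) at 14 weeks and -0.42 (SE 0.18) and -0.67 (SE 0.18) at 9 weeks, against Chat bacTRAP and hTDP-43 WT respectively. The smallest adjusted p among them was 0.463, for the last. That of Chodl was -0.27, -0.43, -0.32 and -0.40 in the same order. Over the 6 genotype contrasts in cord edgeR called 0 of 60 marker values, with 5 at an unadjusted p below 0.05. DESeq2 and limma-voom also called 0, with 5 and 20. The share of all genes called by edgeR for A315T was 0.0212% at 14 and 0.0372% at 9 weeks with Chat bacTRAP as control. With hTDP-43 WT it was 0.0265% and 0.0212%. Between the controls it was 0.00531% at 14 and 0.00% at 9 weeks. The adjusted p of Calca against hTDP-43 WT at 9 weeks was 0.0235 when cord libraries were fitted alone and 4.45e-05 with limma-voom, which passes 0.05 but remains below 2-fold; at 14 weeks limma-voom gave 0.000133 against hTDP-43 WT and 0.0338 with Chat bacTRAP as control. By limma-voom 10 of the 60 cord values passed the adjusted p, all below 2-fold, where edgeR and DESeq2 had 0. Beside Calca these were Spp1, at -0.31 and -0.23 against hTDP-43 WT at 14 and 9 weeks and at -0.40 with the other control at 14 weeks, and Chodl, at -0.39 and -0.43 against hTDP-43 WT at 14 and 9 weeks. Htr1d was at 0.32 against Chat bacTRAP at 14 weeks and Esrrb at 0.26 against hTDP-43 WT at 9 weeks. Both contrasts at each age share their A315T libraries.

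Calca is also made by sensory neurons, whose cells lie outside the cord but may come along with nerve roots. The summed level of 4 sensory markers (Scn10a, Trpv1, Avil and Mrgprd) in cord was 0.568 to 9.13 CPM in A315T, 0.382 to 1.81 CPM in Chat bacTRAP and 0.287 to 0.503 CPM in hTDP-43 WT mice at 14 weeks, and 0.602 to 0.982, 0.248 to 10.2 and 0.373 to 16.9 CPM at 9 weeks. At 14 weeks every A315T library thus lay above every hTDP-43 WT library in this sum, but the closest, at 0.568 and 0.503 CPM, rest on few reads. The A315T and Chat bacTRAP ranges overlapped. A315T replicates 1 and 4, at 9.13 and 4.32 CPM, lay above every Chat bacTRAP library. A315T replicates 2 and 3, at 0.598 and 0.568 CPM, lay below Chat bacTRAP replicates 2, 4 and 5, at 1.81, 0.926 and 0.616 CPM. Taken singly, each of the 4 markers overlapped between A315T and hTDP-43 WT mice. Trpv1 had 1.19 normalized counts in A315T replicate 3 and 6.58 in hTDP-43 WT replicate 5. Avil had 8.32 in A315T replicate 3 and 11.4 in hTDP-43 WT replicate 4. Scn10a had 0.521 in A315T replicate 2 and 0.592 in hTDP-43 WT replicate 3, and Mrgprd had 0 in libraries of both. At 9 weeks the highest sums, 16.9 and 10.2 CPM, lay in hTDP-43 WT and Chat bacTRAP libraries. The part of sensory neurons in the Calca values was not tested. Spp1, Esrrg and Htr1d in cord had no adjusted p below 0.05 in edgeR either. Htr1d at 14 weeks had 144, 145, 138 and 157 normalized counts in A315T and 124, 109, 116.8, 131 and 138 in Chat bacTRAP mice, so that every A315T library lay above the highest Chat bacTRAP library, if only just for the lowest; 1.28% of all genes separated in this way. In cord 46 of 50 neighboring group means differed by less than their pooled SD, with a median coefficient of variation from 8.06% for Sv2a to 22.8% for Esrrg.

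**Figure D5:**
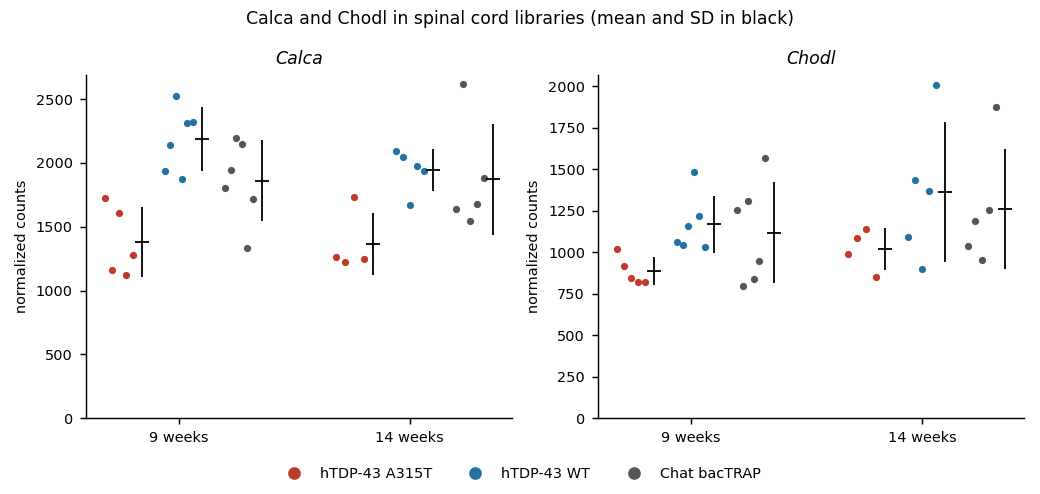
Normalized counts of Calca (left) and Chodl (right) in every spinal cord library at 9 and 14 weeks by genotype, with the mean and SD in black. At 9 weeks the A315T points of both genes lie below all hTDP-43 WT points, and at 14 weeks 1 A315T library of Calca stands at 1729 above the other 3.

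Between 9 and 14 weeks, 1 of 60 marker values passed the adjusted p and none was called. Mmp9 in MN-TRAP of hTDP-43 WT mice had 1032, 2779 and 2154 normalized counts at 9 weeks and 1113, 781, 1317, 1401 and 1536 at 14 weeks, a log2 change of -0.73 (SE 0.22, adjusted p = 0.0298), beside 7.03% of all genes called. One 9-week library lay below most of the 14-week libraries, so the groups overlap. The call on p was lost in the fit of MN-TRAP alone (-0.75, adjusted p = 0.285), with limma-voom (-0.72, adjusted p = 0.553) and without 9-week replicate 2 (-0.41, adjusted p = 0.546), replicate 3 (adjusted p = 0.0553) or 14-week replicate 2 (adjusted p = 0.0751). Without 9-week replicate 1, the library of 472447 counts, it was -1.004 (adjusted p = 0.0031) and would be called. No marker passed the adjusted p for age in A315T or Chat bacTRAP mice in either fraction, beside 0.0106% and 5.15% of all genes called in MN-TRAP and 0.00% in cord. None was called for a difference between ages in its genotype change in MN-TRAP either (edgeR; called for 1.71% of all genes with Chat bacTRAP as control and 0.143% with hTDP-43 WT).

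Of 7 further genes used to tell motor neuron types apart, 4 were called higher in MN-TRAP than in cord, beside 10.4% of all genes. They were the peptide receptor Vipr2 (log2 difference 3.40), the GDNF co-receptor Gfra1 (1.54), the transcription factor Npas1 (1.24) and the serotonin receptor Htr1f (1.16). Kcnn3, the small-conductance potassium channel of slow motor neurons, was at 0.62 and Dlk1, a fast-type signalling protein, at -0.54, both past the adjusted p but not the fold, and the potassium channel Kcnq5 was at 0.12. For genotype, 2 of the 7 (Kcnn3 and Htr1f) were called higher in A315T than in Chat bacTRAP MN-TRAP at 14 weeks, beside 10.4% of all genes. The same 2 were called higher in hTDP-43 WT than in Chat bacTRAP mice, beside 13.2%. Kcnn3 had a log2 change of 1.31 (SE 0.43, adjusted p = 0.0340) in A315T mice and 1.44 (SE 0.42, adjusted p = 0.0116) in hTDP-43 WT mice. Htr1f had 2.54 (SE 0.79, adjusted p = 0.0250) in A315T mice and 2.89 (SE 0.77, adjusted p = 0.00642) in hTDP-43 WT mice. Of the Chat bacTRAP libraries, 3 held no Htr1f read, and the other, replicate 4, which is the library with Y-linked reads, held 8. Without it the Chat bacTRAP group held no Htr1f read, so any fold is set by the floor chosen. A floor of 3 counts over the 3 libraries gave 20.6-fold in A315T and 25.9-fold in hTDP-43 WT mice, by pooled counts. Of the 533 counts in hTDP-43 WT mice, 376 came from replicate 5, a library with Lamr1-ps1 reads. At 9 weeks all 4 Chat bacTRAP libraries held Htr1f, at 33.0 to 48.2 normalized counts, beside 19.4 to 49.2 in A315T mice. The A315T changes of Kcnn3 and Htr1f at 14 weeks were lost when MN-TRAP was fitted alone (adjusted p = 0.374 and 0.403) and with limma-voom (0.693 and 0.513). They were also lost without single libraries, at an adjusted p of up to 0.156 for Kcnn3 and 0.135 for Htr1f, both without Chat bacTRAP replicate 1. The hTDP-43 WT changes were lost as well with MN-TRAP alone (adjusted p = 0.218 for Kcnn3 and 0.224 for Htr1f) and with limma-voom (0.568 and 0.461), and that of Kcnn3 without Chat bacTRAP replicate 1 (0.0583). With age, 1 of the 7 was called in MN-TRAP of hTDP-43 WT mice, beside 7.03% of all genes. It was Kcnq5, at a log2 change of 1.05 (SE 0.36, adjusted p = 0.0468) from 9 to 14 weeks. In Chat bacTRAP mice 1 was called, Kcnn3, at -1.62 (SE 0.44, adjusted p = 0.0223), beside 5.15% of all genes. Both calls were lost with MN-TRAP alone (adjusted p = 0.359 and 0.538) and with limma-voom (0.607 and 0.999), that of Kcnq5 also at 0.48 (adjusted p = 0.649) without 9-week replicate 2, and that of Kcnn3 at -1.10 (adjusted p = 0.106) without 9-week replicate 3.

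Across the 25 MN-TRAP libraries some markers varied together. The highest correlations of log2 CPM among the 10 were 0.78 for Chodl with Spp1, 0.73 for Mmp9 with Rbfox3 and 0.65 for Rbfox3 with Wnt7a, and the lowest was -0.53 for Sv2a with Esrrg. Without the libraries with Lamr1-ps1 reads these were 0.78, 0.71, 0.67 and -0.53, and without those under 3000000 counts 0.77, 0.70, 0.57 and -0.59. Among 10879 genes, those most like each marker were Gpc1 for Mmp9 (r = 0.90), Tapt1 for Chodl (0.87), Mien1 for Calca (0.82), Dock11 for Spp1 (0.87) and Dctn2 for Rbfox3 (0.95). For the others they were Ndrg2 for Sv2a (0.83), Ncoa7 for Esrrg (0.91), Smap2 for Esrrb (0.89), Pecr for Htr1d (0.82) and Saraf for Wnt7a (0.92). Aldoc, an enzyme abundant in astrocytes, came next for Sv2a (0.82). These libraries share genotype, depth and carry-over of other cells, and the values are descriptions with no test.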

How the data were processed

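The 10 markers and the gene lists were chosen with earlier results of these data known. The deposited count files give, for each Ensembl gene, the number of reads assigned to it; the submitters' notes name STAR, featureCounts and DESeq2 and the build mm10 (GRCm38), and the study's methods give standard parameters. The deposited signal files hold those counts after the authors scaled each library by a size factor, and the normalized counts of the text come from them. Symbols were found for 42462 of 43629 gene IDs. Levels per kb are signal divided by the exon length of the reference annotation.

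Counts were read into R 4.3.3, and filterByExpr, given the groups, left 18838 genes. Libraries were scaled by TMM and edgeR 4.0.16 fitted 1 model of 12 groups to all 56 libraries (glmQLFit with robust estimation, glmQLFTest). Adjusted p-values are from this test by Benjamini-Hochberg over all genes tested unless another tool is named, and a gene is called where that p is below 0.05 and it differs by 2-fold or more. The contrasts were MN-TRAP against cord, each pair of genotypes by fraction and age, 14 against 9 weeks, and differences between these. Each marker was named, the 7 other subtype genes were named where they passed the test and counted otherwise, and likeness is Pearson's r of log2 CPM with a prior count of 2. Group assignments came from the sample titles. One gene of the sensory neuron marker list is not reported here, and sums over that list leave it out. The script was tested on simulated data.

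Alternatives were DESeq2 1.42.0, limma 3.58.1 (voom with quality weights), median-ratio normalization, no filter, 1 fraction or 1 age alone, a replicate block, and each library left out; the doubted libraries were left out together as a choice made after seeing the data. Libraries of the same genotype, age and replicate number in the 2 fractions mostly did not deviate together. Of 25 pairs, 10 had a correlation above 0.1 (median 0.0026), so numbers were not taken as pairs. A low correlation cannot show that 2 libraries came from different animals. Intervals of fitted values are 95% intervals from the model of all 56 libraries. Depth runs from 472447 to 255802240 counts, and the shallowest libraries give the least precise values.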

Additional observations from a re-analysis of the deposited data

Results flagged for a closer look

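Among 110 sets of replicates of a marker with 4 to 6 libraries, 8 had a library far from the others of its group by Dixon's criterion, of which chance gives about 1 in 20. In MN-TRAP these were Wnt7a in hTDP-43 WT mice at 14 weeks, where replicate 3 held 1731 normalized counts and the next library 399; Htr1d in A315T mice at 14 weeks, where replicate 2 held 820 and the next 479; and Esrrg in Chat bacTRAP mice at 9 weeks, where replicate 4 held 3756 and the next 2444. The last of these is a control library with Lamr1-ps1 reads.

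In cord, Calca in A315T replicate 3 at 14 weeks held 1729 normalized counts and the next library 1262, and the same library held the lowest Esrrb of its group, 326, with the next at 391.5. Mmp9 in A315T replicate 1 at 9 weeks held 492.8 and the next 388. Htr1d was low in hTDP-43 WT replicate 5 at 14 weeks, with 112 beside 134, and in Chat bacTRAP replicate 4 at 9 weeks, with 110.4 beside 133.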

How the results depend on the processing

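The count of markers enriched in MN-TRAP was 6 in every alternative except limma-voom (5, without Wnt7a at 0.98), and no marker was called for A315T at 14 weeks in any. Against hTDP-43 WT at 9 weeks in MN-TRAP, 1 marker (Esrrb) was called without the control libraries with Lamr1-ps1 reads, and leaving out single libraries gave 0 to 1, the latter without hTDP-43 WT replicate 3; the set then holds 2 hTDP-43 WT libraries. Of the results that answer a comparison 134 kept their call or count and 2 moved; of the values of single genes 1172 kept direction and side of the threshold, 39 fell below it, 14 passed it and 17 changed sign. The cause was not tested.

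Signs changed as follows. Rbfox3 enrichment was 0.15 at 9 weeks alone. Against Chat bacTRAP at 14 weeks, Mmp9 was -0.0031 with median-ratio normalization and -0.0038 with DESeq2, Spp1 was 0.0168 without libraries under 3000000 counts, and with single libraries left out Calca ran from -0.0290 to 0.26 and Spp1 from -0.23 to 0.0414. Against hTDP-43 WT at 14 weeks, limma-voom gave Chodl 0.0050, Htr1d -0.10 and Wnt7a 0.36, and single libraries left out gave Chodl -0.15 to 0.0159, Htr1d -0.12 to 0.22 and Wnt7a -0.70 to 0.45. With a replicate block Chodl was 0.0081 and the hTDP-43 WT age change of Mmp9 lost its call (-0.72, adjusted p = 0.0615). The cord library of the same number correlated best in 5 of 25 pairs.

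Calls over all genes depended on the fit: A315T against Chat bacTRAP at 14 weeks in MN-TRAP had 1960 calls in edgeR, 2369 in DESeq2 and 0 both in MN-TRAP alone and in limma-voom, and against hTDP-43 WT 1009, 1355, 0 and 152. Mmp9 in hTDP-43 WT mice was called lower at 14 than at 9 weeks in the fits without the shallowest library. Whether depth, lowest in the 3 MN-TRAP libraries under 3000000 counts, sets the spread of a marker was not tested.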
